A study of Mus musculus with 46 samples.

Results

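Loss of the mitochondrial transcription factor Tfam and joint loss of the mitofusins Mfn1 and Mfn2 were set against each other in mouse liver. The 7 libraries described were chosen by their labels, as the 3 liver samples labelled Tfam KO and the 4 labelled Mfn DKO, out of 46 samples in the series. The 6 liver samples labelled control gave the level in unaltered liver, so that 13 liver libraries entered each fit. The descriptions of all 13 begin with AAVliver, which names the viral vector (adeno-associated virus) and the organ. The controls carry the same prefix. The sources used here give no promoter, vector dose, age, sex, strain or time after injection for the livers. RNA came from whole flash-frozen liver, so that a lower level of a transcript may mean less RNA per cell or fewer cells that hold it, and these cannot be told apart.

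TFAM coats mitochondrial DNA and bends its promoters so that the mitochondrial RNA polymerase can start. It is needed both to transcribe and to keep the circular genome that encodes 13 subunits of the respiratory chain, the 2 ribosomal RNAs and the 22 transfer RNAs of the organelle. MFN1 and MFN2 are GTPases of the outer mitochondrial membrane that tether and fuse neighbouring mitochondria, and without them the network fragments. Both lesions impair respiration, and in many tissues such defects switch on the integrated stress response, in which ATF4 and its partners raise genes of amino acid and one-carbon metabolism. The direct comparison asks which transcripts separate the lesions, as opposed to those that both change from control.

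The targeted genes were low in the libraries that the labels name. Tfam, at chr10:71225464-71238280 on the minus strand of GRCm38, was at 15, 13.1 and 15.9 CPM (counts per 1000000 counts, scaled by the trimmed mean of M-values) in the 3 Tfam KO livers. It was at 59.9, 52.7, 57.7 and 50.4 CPM in the 4 Mfn DKO livers and at 54.2 to 66.2 CPM in the controls. Every Tfam KO library was below every other library. The fitted difference between the knockouts was −1.91 ± 0.11 (log2, SE), with an adjusted p of 4.11e-06 by edgeR's quasi-likelihood test with Benjamini-Hochberg adjustment, which gave all adjusted p-values below unless another tool is named.

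Mfn1, at chr3:32529465-32579239 on the plus strand, was at 15.7, 21.8, 17.8 and 25.4 CPM in Mfn DKO, at 99.6, 81.9 and 75.5 CPM in Tfam KO and at 67.8 to 88.3 CPM in control. Mfn2, at chr4:147873599-147904704 on the minus strand, was at 32.3, 38.4, 36.6 and 45.1 CPM in Mfn DKO, at 124, 122 and 134 CPM in Tfam KO and at 113 to 191 CPM in control. No Mfn DKO library overlapped another library for either gene, and the difference between the knockouts was 2.09 ± 0.16 for Mfn1 (adjusted p = 4.04e-05) and 1.73 ± 0.17 for Mfn2 (adjusted p = 0.000365). The RNA left from the targeted genes was alike in both models. Tfam RNA in Tfam KO averaged 24.9% of control, and in Mfn DKO the averages were 24.9% for Mfn1 and 24.3% for Mfn2. These percentages of whole-liver RNA do not measure how many cells lost the gene. Tfam RNA in Mfn DKO averaged 93.7% of control, and the labels do not say which exons were deleted, so a gene's count may include exons outside the deleted part.

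**Figure D1:**
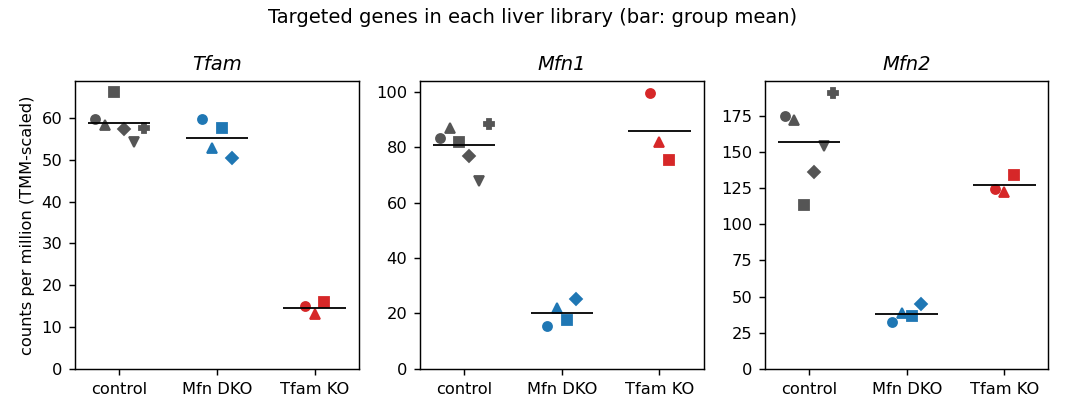
CPM of the 3 targeted genes in each of the 13 liver libraries, on linear axes from 0, with 1 point per library, a marker shape per replicate number and a bar at the group mean. Tfam KO libraries sit at 13.1 to 15.9 for Tfam, and Mfn DKO libraries sit at 15.7 to 25.4 for Mfn1 and 32.3 to 45.1 for Mfn2, each below all other libraries.

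The libraries held 41961114 to 56894510 assigned counts. By Xist and Ddx3y RNA, Tfam KO replicate 1, Mfn DKO replicates 1 and 3 and control replicates 1, 2 and 6 came from males, and the other 7 from females. The Tfam KO livers differed more among themselves than the other groups did: the root-mean-square log2 difference between 2 libraries of a group was 0.99 to 1.42 in Tfam KO, 0.55 to 0.785 in Mfn DKO and 0.57 to 0.92 in control. On the first principal component, with 41.5% of the variance, Tfam KO replicates 1, 2 and 3 lay at 60.7, 149.8 and 1.62, the Mfn DKO libraries at 14.7 to 31.1 and the controls at −66.3 to −35.7. Tfam KO replicate 2 was thus the farthest from control, and replicate 3 lay nearer to control on this axis than any Mfn DKO library, although its Tfam RNA was as low as that of the other 2. Albumin, the main secreted product of hepatocytes, was high in every library (Alb, 17650 CPM in Tfam KO replicate 2 and 43470 to 104500 CPM in the others). Pancreatic acinar markers were near the detection limit, with 2 of their list tested and none called.

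Between the knockouts, 50 of 17024 tested genes were called at an adjusted p of at most 0.05, which is 0.294%. Of these, 18 (0.106%) were higher and 32 (0.188%) lower in Tfam KO. Against the same 6 controls, 4992 genes (29.3%) were called in Tfam KO, 18.1% of all genes higher and 11.3% lower. In Mfn DKO 1681 (9.87%) were called, 5.23% higher and 4.64% lower. Leaving out 1 library moved the Tfam KO count to between 2504 (without Tfam KO replicate 2) and 7330 (without Tfam KO replicate 3), and the Mfn DKO count to between 686 (without Mfn DKO replicate 1) and 3379 (without Tfam KO replicate 2). The 50 genes fell into few kinds: 14 lay on the mitochondrial genome, 3 were the targeted genes, 10 lay near Mfn2, 8 were pseudogenes elsewhere and 15 were other genes. In their own comparisons with control, 26 of the 50 were called only in Tfam KO, 15 only in Mfn DKO and 9 in both.

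This count rested on which libraries and genes entered the fit. With only the 7 knockout libraries it was 7, and with at least 10 counts in every library it was 27. It was 39 without Tfam KO replicate 1, 49 without replicate 2 and 4204 of 17552 (24.0%) without replicate 3, and all 50 genes were among the 4204. Leaving out an Mfn DKO library gave 24 without replicate 1, 34 without replicate 2, 29 without replicate 3 and 32 without replicate 4. Among the libraries with Ddx3y, which hold 1 Tfam KO and 2 Mfn DKO livers, 2467 genes were called. That fit takes the lone Tfam KO liver to vary as the other groups do. Among those with Xist, which hold Tfam KO replicates 2 and 3 and Mfn DKO replicates 2 and 4, 2 were called. With sex by RNA as a term in the fit of all 13 libraries 65 were called (0.382%, with 0.135% higher and 0.247% lower), 49 of the 50 among them. DESeq2's Wald test called 1087 (6.39%, with 4.65% higher and 1.74% lower), 44 of the 50 among them. Comparisons of lists between the knockouts are therefore given both with all libraries and without Tfam KO replicate 3, a choice made after the data were seen. That replicate is 1 of the 2 female Tfam KO livers. Its root-mean-square log2 difference from Mfn DKO libraries was 0.661 to 0.8154. For replicate 1 it was 0.8135 to 1.027 and for replicate 2 1.29 to 1.376. Leaving out replicate 3 thus widens the difference by choice, and counts and adjusted p-values without it describe that subset only. List counts without replicate 2 are not given here. Over all genes, the fit without replicate 3 called 13.9% higher and 10.1% lower, and list counts below are read beside these shares.

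Transcripts of the mitochondrial genome made up 14 of the 50 called genes, all lower in Tfam KO. Counts assigned to its protein genes made up 0.118%, 0.514% and 0.131% of all counts in the 3 Tfam KO livers. They made up 1.87%, 1.94%, 2.57% and 2.24% in Mfn DKO and 3.02% to 4.34% in control. The 3 groups did not overlap, and counting error was small beside their spread (Wilson 95% interval 0.118% to 0.119% in Tfam KO replicate 1, for counting error only). The mean share was 0.255% ± 0.225 (SD, n = 3) in Tfam KO and 2.16% ± 0.318 (SD, n = 4) in Mfn DKO, an 8.47-fold difference, with p = 0.0286 in a two-sided exact permutation test, the smallest that 35 arrangements allow. The ratio was 17.3 without Tfam KO replicate 2 and 6.68 without replicate 1.

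Of the 13 protein genes, 11 passed the filter on low counts, and 9 were called lower in Tfam KO than in Mfn DKO, with a median of −3.35 against 0.01 over all genes tested. Against control, all 11 were called lower in Tfam KO (median −4.33) and 3 in Mfn DKO (median −0.97), beside 11.3% and 4.64% of all genes. The uncalled ones were lower in Mfn DKO too. In every Mfn DKO library each of the 11 was below the control mean, at 34.0% to 77.9% of it. For mt-Co3, mt-Nd3 and mt-Nd5 the Mfn DKO and control libraries overlapped. Cytochrome b, the mtDNA-encoded core of complex III, showed the largest difference of the list. mt-Cytb was at 185, 572 and 193 CPM in Tfam KO, 4367, 4427, 5308 and 5262 CPM in Mfn DKO and 7172 to 11500 CPM in control. The Tfam KO libraries thus held 2.04%, 6.31% and 2.13% of the control mean and the Mfn DKO libraries 48.2% to 58.6%, with a difference between them of −3.93 ± 0.42 and an adjusted p of 0.000672.

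The complex I subunits followed the same order of groups. mt-Nd1 held 3.68%, 14.7% and 5.08% of the control mean in Tfam KO and 42.1% to 60.5% in Mfn DKO (−2.70 ± 0.41, adjusted p = 0.0117). mt-Nd5 held 2.17%, 8.77% and 2.10% in Tfam KO and 50.4% to 77.9% in Mfn DKO (−3.79 ± 0.53, adjusted p = 0.00537). mt-Nd6, the protein gene read from the other strand, held 2.12%, 8.28% and 2.04% against 41.3% to 53.8% (−3.52 ± 0.47, adjusted p = 0.00366). mt-Nd2 (−3.30 ± 0.40), mt-Nd3 (−3.60 ± 0.47) and mt-Nd4 (−3.62 ± 0.43) were called as well, as were mt-Co1 of complex IV (−3.35 ± 0.41, adjusted p = 0.0021) and mt-Atp6 of complex V (−3.30 ± 0.36, adjusted p = 0.00075). In each of these genes except mt-Nd3, Tfam KO replicate 2 was the highest of the 3.

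mt-Co2 (−3.03 ± 0.60, adjusted p = 0.0596) and mt-Co3 (−3.00 ± 0.62, adjusted p = 0.0734) missed the threshold, and both were called without Tfam KO replicate 3. Their counts were low in every group, with controls at 0.534 to 0.84 CPM for mt-Co2 and 0.431 to 0.87 CPM for mt-Co3. Nuclear copies of the same sequence exist: 99.4% of the 151-base windows of mt-Co2, 99.4% of mt-Atp6, 99.8% of mt-Co3, 97.0% of mt-Nd3 and 98.0% of mt-Nd4l also occur in an annotated nuclear pseudogene transcript, as do 59.1% of mt-Nd4 and 23.6% of mt-Co1. For the other protein genes and both ribosomal RNAs the share was 0.0%. A read from a shared window has no unique origin, and how the authors treated such reads is not given in the sources used here. Summed with its copy Gm10925, mt-Atp6 stayed at 0.0655, 0.429 and 0.112 CPM in Tfam KO against 1.78 to 2.06 CPM in Mfn DKO. In control this sum was only 3.19 to 4.93 CPM, beside 10760 to 15700 CPM for mt-Co1 with its copy. The sum therefore cannot show where shared reads were counted. Counts of mt-Co2, mt-Atp6, mt-Co3, mt-Nd3 and mt-Nd4l were few in every library. The share of counts from protein genes given above, and its 8.47-fold difference, thus rest on other protein genes. The called mt-Atp6 and mt-Nd3 rested on few counts in Tfam KO, with 2, 6 and 2 for mt-Atp6 and 2, 2 and 1 for mt-Nd3. Of the 7 pseudogenes called lower, 4 (Gm28437, Gm28438, Gm10925 and Gm29216) share such windows.

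The ribosomal RNAs ordered the Tfam KO libraries differently from the messenger RNAs. mt-Rnr1, the small subunit RNA, held 6.83%, 5.23% and 9.48% of the control mean in Tfam KO replicates 1, 2 and 3 and 42.2% to 66.3% in Mfn DKO (−2.96 ± 0.28, adjusted p = 0.000262). mt-Rnr2, the large subunit RNA, held 11.4%, 8.16% and 26.2% against 51.6% to 72.0% (−2.06 ± 0.39, adjusted p = 0.0436). Replicate 2 was thus the lowest of the 3 for both ribosomal RNAs, while it was the highest for 10 of the 11 tested messenger RNAs.

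**Figure D2:**
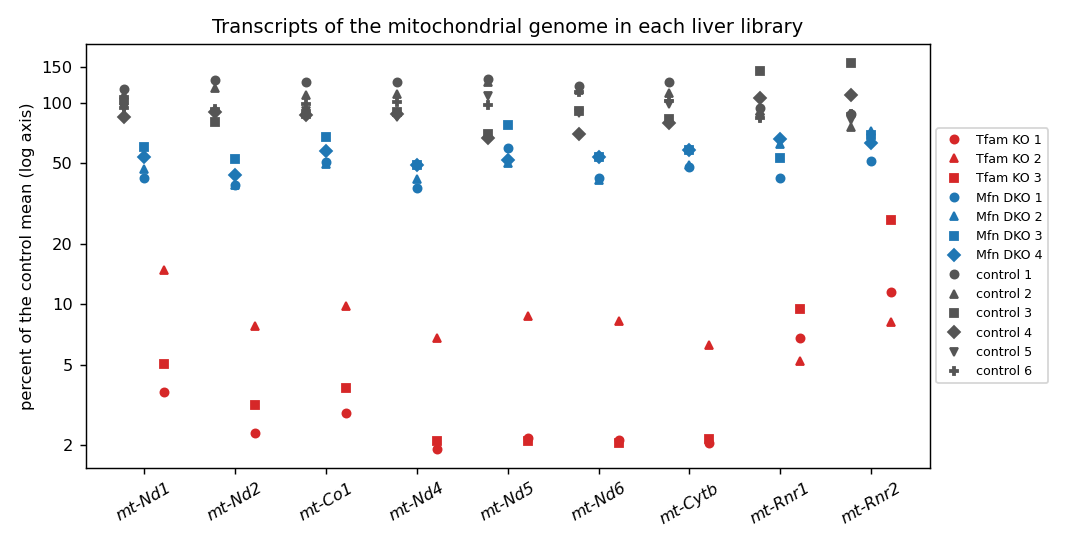
Transcripts of the mitochondrial genome whose control mean is at least 100 CPM, each library as a percent of the control mean on a log axis, with 1 point per library and a marker shape per replicate number. Mfn DKO libraries lie at 37.9% to 77.9% and Tfam KO libraries at 1.92% to 26.2%, with replicate 2 (triangle) the highest for the messenger RNAs and the lowest for the 2 ribosomal RNAs.

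Of the 22 mitochondrial transfer RNA genes, 4 passed the filter, and 3 were called lower in Tfam KO. All 3 are read from the minus strand of the mitochondrial genome, as mt-Nd6 is. The other tested gene, mt-Tl1 of the plus strand, was also lower in Tfam KO but missed the threshold (−2.935, adjusted p = 0.0734). A difference between the strands was not tested. The sequences of the 3 called genes were read from the GENCODE transcripts of GRCm38 and carry the anticodon in capitals. mt-Tn (transfer RNA for asparagine, chrM:5089-5159) was at 0, 0.0779 and 0.0224 CPM in Tfam KO and 0.423 to 0.718 CPM in Mfn DKO. mt-Tc (cysteine, chrM:5192-5257) was at 0.115, 0.428 and 0.134 against 1.93 to 3.15 CPM. mt-Tp (proline, chrM:15356-15422) was at 1.03, 6.96 and 0.939 against 22.5 to 34.9 CPM. Their differences were −3.75 ± 0.62, −3.29 ± 0.43 and −3.10 ± 0.57, in that order.
mt-Tn: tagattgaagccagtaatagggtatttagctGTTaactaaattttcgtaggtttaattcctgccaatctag
mt-Tc: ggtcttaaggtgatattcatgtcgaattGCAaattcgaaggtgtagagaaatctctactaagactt
mt-Tp: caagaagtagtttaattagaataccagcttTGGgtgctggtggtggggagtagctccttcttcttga

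Nuclear genes of the mitochondrion showed far smaller differences. None of the 36 tested nuclear subunits of complex I was called between the knockouts, and their median was 0.11. In the 40 subunits of complexes II to V, 0 were called (median 0.09), and in the 77 mitochondrial ribosomal proteins 0 (median 0.19). Ndufa12, an accessory complex I subunit, was at 53.2, 70.6 and 49.4 CPM in Tfam KO and 39.8 to 46 CPM in Mfn DKO (0.45 ± 0.12, adjusted p = 0.101). Mrps16, of the small mitoribosomal subunit, was at 33.5, 32 and 35.5 against 23.4 to 27 CPM (0.43 ± 0.11, adjusted p = 0.097). In both genes the knockout groups did not overlap, without a call.

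Without Tfam KO replicate 3, against 13.9% called higher and 10.1% called lower over all genes, 14 of the 77 mitochondrial ribosomal proteins were higher and 1 lower. Complex I gave 1 of 36 higher and 0 lower, and complexes II to V 2 of 40 higher and 1 lower. Import translocases gave 10 of 22 higher and 0 lower, and genes for replication, transcription and processing of mtDNA gave 10 of 32 higher and 0 lower. Tomm20, a receptor of the outer membrane import pore, was at 86.2, 112 and 58.3 CPM in Tfam KO and 45.1 to 55.9 CPM in Mfn DKO (0.76 ± 0.19, adjusted p = 0.0992, and 0.00193 without replicate 3). Tbrg4, which binds mitochondrial RNA, was at 80.5, 82.6 and 44.9 against 37.6 to 46.1 CPM (0.72 ± 0.18, adjusted p = 0.0976, and 0.000677 without replicate 3). Clpp, the mitochondrial matrix protease, was at 78.7, 74.1 and 48.3 against 40 to 48.4 CPM (0.59 ± 0.16, adjusted p = 0.101). Replicate 3 lay close to the Mfn DKO range in all 3 genes.

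Of 31 genes for mitochondrial fusion, fission and shape (Mfn1 and Mfn2 left out), 0 were called with all libraries, and 8 were higher and 1 lower without Tfam KO replicate 3. Rhot1, which links mitochondria to microtubule motors, was at 109, 87.9 and 46.9 CPM in Tfam KO and 39 to 52 CPM in Mfn DKO (0.83 ± 0.22, adjusted p = 0.101). Parl, an inner membrane protease, was at 47.3, 54.4 and 42.2 against 32.5 to 38 CPM (0.47 ± 0.12, adjusted p = 0.101). Parl fell in Mfn DKO against control (−0.48 ± 0.10, adjusted p = 0.0141), and in Tfam KO it lay at the control level (−0.01 ± 0.11). The mitophagy and autophagy list gave 1 call of 24, and 1 higher and 3 lower without Tfam KO replicate 3. For both lists the shares over all genes without that replicate were 13.9% higher and 10.1% lower. Ulk1, the kinase that starts autophagy, was at 56.2, 34.8 and 59.7 CPM in Tfam KO, 88.4 to 105 CPM in Mfn DKO and 80.7 to 94.7 CPM in control (−0.97 ± 0.16, adjusted p = 0.0221). Its Tfam KO libraries lay below all others.

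Among the 15 other genes called, several stood apart from control in Tfam KO only. Odc1, the first enzyme of polyamine synthesis, was at 274, 360 and 208 CPM in Tfam KO, 100 to 146 CPM in Mfn DKO and 90.2 to 136 CPM in control (1.18 ± 0.19, adjusted p = 0.0198). Pmm1, a phosphomannomutase, was at 110, 125 and 10.2 CPM against 6.74 to 10.2 CPM in Mfn DKO and 4.97 to 7.56 CPM in control (3.28 ± 0.55, adjusted p = 0.0228). Emp1, a membrane protein of epithelia, was at 7.13, 10.3 and 4.47 against 1.89 to 3.34 CPM (1.53 ± 0.27, adjusted p = 0.0359). Odc1 and Emp1 were above every Mfn DKO library in all 3 Tfam KO livers, whereas in Pmm1 replicate 3 was level with the highest Mfn DKO library.

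Aldh1l2, the mitochondrial enzyme that oxidises 10-formyltetrahydrofolate, was at 13.2, 52.1 and 1.25 CPM in Tfam KO and 0.788 to 0.932 CPM in Mfn DKO, with controls at 0.0994 to 0.867 CPM (4.67 ± 0.88, adjusted p = 0.0449). It was the only called gene within 20 Mb of Tfam, of 373 tested there. Dlg2, a scaffold protein known from synapses, was at 7.34, 11.1 and 0.492 against 0.155 to 0.383 CPM (4.66 ± 0.72, adjusted p = 0.0129). Trub2, a mitochondrial pseudouridine synthase, was at 14.2, 19.4 and 12.3 against 8.16 to 8.87 CPM (0.86 ± 0.16, adjusted p = 0.0402). In these 3 genes replicate 2 was the highest and replicate 3 the lowest of the Tfam KO livers, and every one of the 3 was above every Mfn DKO liver.

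Lower in Tfam KO were Elk3, a transcription factor of the ETS family (5.52, 6.25 and 3.85 CPM against 10.4 to 10.9 CPM; −1.04 ± 0.15, adjusted p = 0.00882), and Wdfy1, an endosomal adaptor (15.6, 16.2 and 11.3 CPM against 29.2 to 58.3 CPM; −1.55 ± 0.24, adjusted p = 0.0148). Elk3 and Wdfy1 fell against control in Tfam KO (−1.004 ± 0.14 and −1.36 ± 0.23) and were not called in Mfn DKO (0.03 ± 0.13 and 0.19 ± 0.20). Lhpp, a phosphatase and the 1 call among 20 pericentral liver genes (9 lower and 0 higher without Tfam KO replicate 3), was at 28.9, 25.6 and 43.8 CPM against 60.4 to 72 CPM (−1.005 ± 0.18, adjusted p = 0.0402). Plxnb1, a semaphorin receptor, was at 40.6, 44.3 and 58.5 against 78.2 to 81.7 CPM (−0.74 ± 0.14, adjusted p = 0.0402), and for both genes the controls lay between, at 40.6 to 58.3 and 50.6 to 70.2 CPM, overlapping Tfam KO.

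In Rab6b and Nptx1 the Mfn DKO livers stood apart from control and the Tfam KO livers did not. Of the 8 pseudogenes called, 4 differed from control only in Tfam KO, 1 only in Mfn DKO and 3 in both. The genes of this paragraph were named after their values were seen. Rab6b, a Golgi GTPase, was at 1.64, 1.91 and 1.97 CPM in Tfam KO and 1.23 to 2.16 CPM in control, and at 0.0423, 0.0386, 0 and 0.035 CPM in Mfn DKO (5.86 ± 0.44, adjusted p = 2.97e-05). Nptx1, a pentraxin known from neurons, was at 0.0328, 0.104 and 0.179 CPM in Tfam KO, 0 to 0.39 CPM in control and 2.21 to 3.59 CPM in Mfn DKO (−4.74 ± 0.86, adjusted p = 0.0376). The pseudogene Gm4287 was at 0 in all 4 Mfn DKO libraries and at 0.169 to 0.514 CPM in Tfam KO, and Gm37131 was at 0 in all 3 Tfam KO libraries and at 0.213 to 0.858 CPM in Mfn DKO. Gm8893 (−2.17 ± 0.39), Gm45674 (−1.70 ± 0.29) and Gm13340 (−4.17 ± 0.51) were the other pseudogenes called lower in Tfam KO, of which Gm8893 rose and Gm45674 and Gm13340 were not called in Mfn DKO against control.

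A group of 10 called genes lay around Mfn2 on chromosome 4. Within 20 Mb of Mfn2, 10 of 385 tested genes (2.6%) were called, against 39 of 16638 (0.234%) elsewhere, and 8 of the 95 tested within 5 Mb. The nearest, Fv1, lay 0.00462 Mb from Mfn2 and the farthest 7.525 Mb. The same window held 0 of 124 around Mfn1. In the window around Mfn2, 12.5% of genes were called in Mfn DKO against control and 9.81% elsewhere. In Tfam KO against control 30.1% were called there and 29.3% elsewhere.

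The zinc finger gene Zfp984, at chr4:147753974-147809788, was at 3.26, 4.67 and 2.71 CPM in Tfam KO, 0.169 to 0.315 CPM in Mfn DKO and 1.59 to 2.93 CPM in control (3.93 ± 0.32). Fv1, the retroviral restriction gene at chr4:147868979-147870358, was at 1.77, 1.71 and 2.04 CPM in Tfam KO against 0.242 to 0.736 CPM in Mfn DKO and 1.38 to 2.46 CPM in control (1.93 ± 0.34). Fbxo44, an F-box gene at chr4:148152800-148160482, was at 3.15, 9.06 and 2.04 against 0.127 to 0.21 CPM (4.76 ± 0.50). For these 3 genes every Mfn DKO library was below every library of the other groups.

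Plod1, a collagen lysyl hydroxylase at chr4:147909753-147936767, differed less, at 111, 95.2 and 67.2 CPM in Tfam KO and 40.2 to 52.4 CPM in Mfn DKO (0.98 ± 0.15). Angptl7, a secreted angiopoietin-like protein at chr4:148495183-148500460, was higher in Mfn DKO, at 2.73 to 4.73 CPM against 0.786, 0.597 and 0.76 CPM in Tfam KO and 0.713 to 1.3 CPM in control (−2.31 ± 0.31). Zfp990 was at 0 in all 3 Tfam KO libraries and 0.161 to 0.508 CPM in Mfn DKO, while Zfp982 had a single count in the 4 Mfn DKO libraries and was at 2.75, 0.338 and 2.06 CPM in Tfam KO. Arhgef16 (3.11 ± 0.53) and 5830444B04Rik (4.87 ± 0.65) were higher in Tfam KO. The direction was thus mixed, with 8 of the 10 lower and 2 higher in Mfn DKO.

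**Figure D3:**
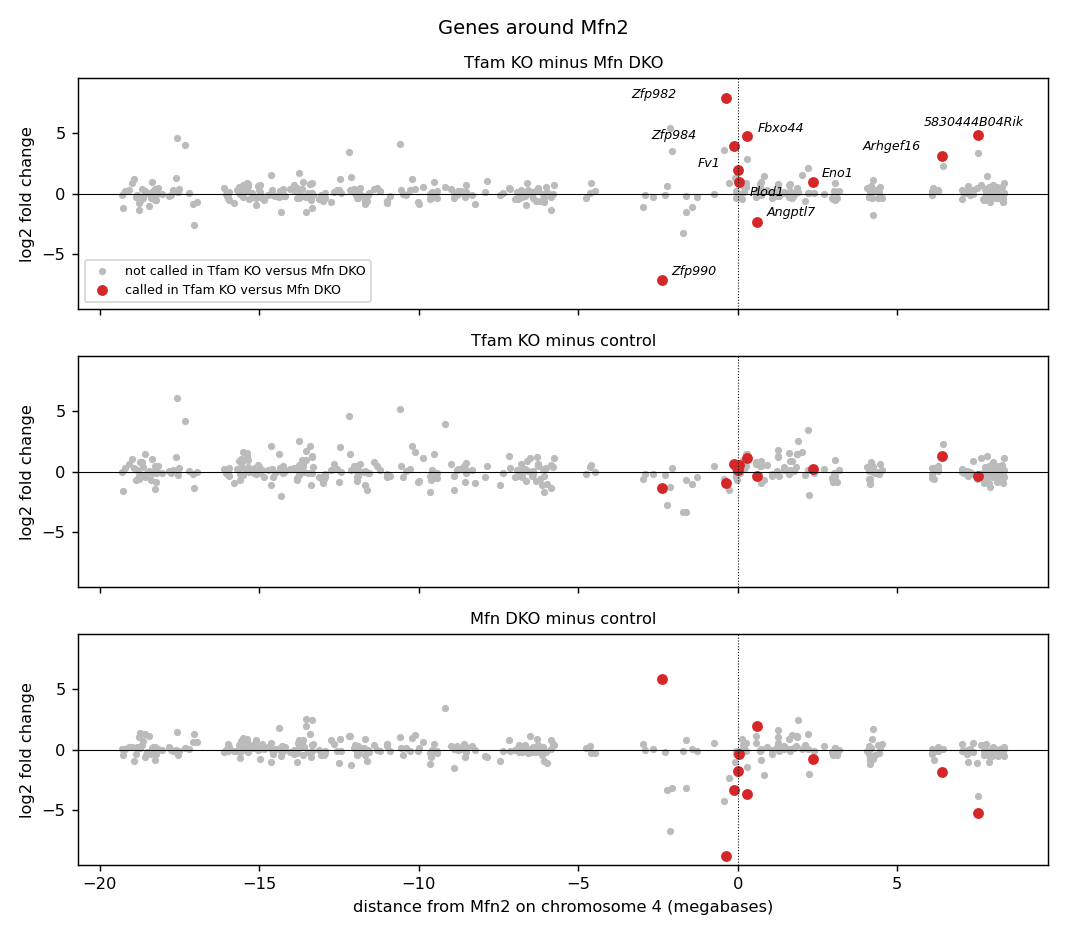
Fitted log2 fold change of each tested gene within 20 Mb of Mfn2 (Mfn2 itself left out) against its distance in megabases, for Tfam KO minus Mfn DKO, Tfam KO minus control and Mfn DKO minus control. The 10 called genes (red, named) lie within 7.525 Mb of Mfn2, and those with no count in a group (Zfp990) have a fitted value that is no measure of size.

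Enolase counts differed in opposite directions at 2 loci. Eno1, the enolase of glycolysis at chr4:150236721-150248879 in the same window, was at 452, 562 and 409 CPM in Tfam KO, 236 to 268 CPM in Mfn DKO and 379 to 437 CPM in control (0.93 ± 0.14, adjusted p = 0.00855). It was the 1 call among 34 genes of glycolysis and glucose production. Of these, 8 were higher and 5 lower without Tfam KO replicate 3 (13.9% and 10.1% of all genes). Eno1b, a copy on chromosome 18, was at 0.508, 0.442 and 0.447 CPM in Tfam KO, 57.9 to 70.5 CPM in Mfn DKO and 0.106 to 0.795 CPM in control (−7.10 ± 0.44, adjusted p = 4.65e-06). Of the 151-base windows of the Eno1b transcript, 50.2% also occur in an Eno1 transcript, so a read from them has no unique origin. The sum of both loci averaged 475 ± 79.1 CPM in Tfam KO (SD, n = 3), 314 ± 19.4 in Mfn DKO (SD, n = 4) and 415 ± 22.7 in control (SD, n = 6). Without any overlap in the sum, Mfn DKO stayed below the other groups at 294 to 338 CPM.

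Genes of the integrated stress response rose against control in both models. In the list of stress response regulators and feedback genes, 15 of 23 rose and 1 fell in Tfam KO, and 8 rose and 0 fell in Mfn DKO, both against the same controls. Over all genes, 18.1% rose and 11.3% fell in Tfam KO, and 5.23% rose and 4.64% fell in Mfn DKO. Between the knockouts 0 of 23 were called with all libraries (median 0.29), whereas 8 were higher and 1 lower without Tfam KO replicate 3 (median 0.22) and 7 were higher by DESeq2's Wald test. Nupr1, a stress-induced chromatin protein, was at 357, 207 and 62.4 CPM in Tfam KO, 33, 73.8, 29.8 and 79.7 CPM in Mfn DKO and 0.634 to 2.69 CPM in control. It rose by 7.12 ± 0.56 in Tfam KO and by 5.17 ± 0.51 in Mfn DKO, and the difference was 1.95 ± 0.54 (adjusted p = 0.101). Atf3, a transcription factor of the response, was at 91.4, 67.6 and 14.5 CPM in Tfam KO, 9.19, 10.3, 7.83 and 27.4 CPM in Mfn DKO and 1.32 to 3.58 CPM in control (difference 2.08 ± 0.54, adjusted p = 0.101, and 0.00212 without Tfam KO replicate 3). Knockouts overlapped in both genes through Tfam KO replicate 3.

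Further genes of the response, named after their values were seen, differed in order. Trib3, a pseudokinase that feeds back on ATF4, was at 226, 292 and 73.1 CPM in Tfam KO and 73.2 to 94.2 CPM in Mfn DKO, with controls at 3.22 to 7.21 CPM (1.21 ± 0.37, adjusted p = 0.117). Ddit3, the factor CHOP, was at 163, 139 and 41.6 against 28.5 to 56.1 CPM (1.52 ± 0.48, adjusted p = 0.122). Atf5 ran the other way, at 561, 269 and 483 CPM in Tfam KO and 701 to 835 CPM in Mfn DKO (−0.80 ± 0.37, adjusted p = 0.241). Atf5 rose against control in both models, by 1.42 ± 0.32 in Tfam KO and 2.22 ± 0.30 in Mfn DKO.

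The secreted stress factors were also high in both. Gdf15, a hormone that curbs appetite, was at 59.4, 95.8 and 31.3 CPM in Tfam KO, 18 to 31.1 CPM in Mfn DKO and 0.951 to 8.98 CPM in control (1.35 ± 0.57, adjusted p = 0.21). Fgf21, a liver hormone of fasting and mitochondrial stress chosen after its values were seen, was at 54.3, 13.1 and 55.5 CPM in Tfam KO, 45.9 to 88.9 CPM in Mfn DKO and 0.502 to 5.14 CPM in control. It rose by 4.13 ± 0.60 and 4.82 ± 0.60 and the knockouts differed by −0.69 ± 0.65 (adjusted p = 0.558). Tfam KO replicate 2, the most altered liver, had the lowest Fgf21 and the highest Gdf15 of the 7 knockouts.

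Serine, one-carbon and proline enzymes gave 1 call of 23 between the knockouts, Aldh1l2, which was lost with sex by RNA as a term. Without Tfam KO replicate 3, 8 were higher and 6 lower. Against control 10 rose and 4 fell in Tfam KO, and 9 rose and 0 fell in Mfn DKO. Over all genes, 18.1% rose and 11.3% fell in Tfam KO, and 5.23% rose and 4.64% fell in Mfn DKO. Between the knockouts without Tfam KO replicate 3, 13.9% of all genes were higher and 10.1% lower. Phgdh, the first enzyme of serine synthesis, was at 48.9, 104 and 2.26 CPM in Tfam KO, 4.04, 7.44, 3.97 and 2.56 CPM in Mfn DKO and 0.0994 to 0.495 CPM in control (3.52 ± 0.81, adjusted p = 0.09, and 0.000219 without Tfam KO replicate 3). Psat1, the next enzyme, was at 125, 361 and 17.9 CPM against 28.7 to 38.2 CPM (2.35 ± 0.69, adjusted p = 0.109). Pycr1, of proline synthesis, was at 5.49, 6.48 and 1.61 against 1.03 to 1.78 CPM (1.56 ± 0.42, adjusted p = 0.101). In all 3 genes replicates 1 and 2 were above every Mfn DKO liver and replicate 3 was within or below their range. Phgdh, Psat1 and Pycr1 were likewise named after their values were seen.

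Asns, asparagine synthetase and a target of ATF4, did not separate the knockouts: 50.7, 126 and 3.13 CPM in Tfam KO and 73.1, 38.7, 47.1 and 24.4 CPM in Mfn DKO, with controls at 0.265 to 2.19 CPM (0.39 ± 0.82, adjusted p = 0.808). Without Tfam KO replicate 2 the sign turned to −0.76. Slc7a11, the cystine transporter, rested on 1 liver, at 2.26, 135 and 0.134 CPM in Tfam KO and 0.0423 to 0.323 CPM in Mfn DKO (8.27 ± 1.62, adjusted p = 0.0578).

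Enzymes that charge transfer RNAs in the cytosol rose against control mainly in Tfam KO. Of 20 tested, 12 rose in Tfam KO against control and 1 in Mfn DKO, none fell in either, and the medians were 0.77 and 0.10. Over all genes 18.1% and 5.23% rose. Between the knockouts the median was 0.42 with 0 calls, and without Tfam KO replicate 3 it was 0.62 with 16 called higher and 0 lower. Relative to the control mean, the mean log2 level of the list was 0.87, 1.06 and 0.05 in Tfam KO and 0.06 to 0.26 in Mfn DKO. Gars, which charges glycine, was at 183, 408 and 65.8 CPM in Tfam KO, 74.2 to 85.9 CPM in Mfn DKO and 43.8 to 55.5 CPM in control (1.43 ± 0.39, adjusted p = 0.101). Kars, which charges lysine, was at 105, 106 and 83.7 CPM in Tfam KO, above the 65.8 to 79.8 CPM of Mfn DKO (0.44 ± 0.11, adjusted p = 0.0998). The endoplasmic reticulum list gave 0 of 26 called and a median of −0.10. Without Tfam KO replicate 3, 4 were lower and 0 higher (10.1% and 13.9% of all genes).

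The core of the C/EBP-ATF response element, TGATGCAA, to which ATF4 dimers bind, was searched on both strands of RefSeq promoters (GRCm38.p6, 250 bases before to 50 after each start site). Of 90 tested genes in 5 stress lists, 69 had a promoter in the table and 14 of them (20.3%) held the core, against 99 of 12032 tested genes (0.823%) and 294 of 32851 promoters (0.895%). Windows of 40 bases on each side of the core are shown, with the core in capitals, for 4 genes called higher without Tfam KO replicate 3 (Atf3, Nupr1, Pycr1 and Slc7a11) and 2 that were not (Fgf21 and Chac1), chosen after their values were seen. Slc7a11 holds the core on both strands. The windows lie at chr1:191183396-191183483, chr7:126625533-126625620, chr11:120643804-120643891, chr3:50443613-50443719, chr7:45615582-45615669 (all of genes on the minus strand) and chr2:119351009-119351096 (plus), in the order below.
Atf3: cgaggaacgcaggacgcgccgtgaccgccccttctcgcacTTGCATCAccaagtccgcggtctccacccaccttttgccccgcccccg
Nupr1: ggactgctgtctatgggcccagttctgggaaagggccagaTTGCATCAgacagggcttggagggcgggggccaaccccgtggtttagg
Pycr1: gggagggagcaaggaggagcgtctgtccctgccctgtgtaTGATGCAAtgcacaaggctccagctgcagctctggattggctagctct
Slc7a11: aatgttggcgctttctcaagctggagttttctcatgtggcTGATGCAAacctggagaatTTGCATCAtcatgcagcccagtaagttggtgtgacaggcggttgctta
Fgf21: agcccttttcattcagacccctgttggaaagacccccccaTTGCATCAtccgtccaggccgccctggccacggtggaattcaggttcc
Chac1: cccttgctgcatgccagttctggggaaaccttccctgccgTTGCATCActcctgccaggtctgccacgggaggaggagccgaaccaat

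The calls between the knockouts were then counted for genes with and without the core. Of the 14 holders, 0 were called with all libraries, and without Tfam KO replicate 3, 6 were called higher and 0 lower. Of the 55 without it in this window, 24 were called higher and 9 lower. The share called higher was thus alike with and without the core. Over all genes in that fit it was 13.9%, with 10.1% lower. Chac1, which degrades glutathione, was at 7.78, 17.1 and 17.8 CPM in Tfam KO, 6.7 to 20.9 CPM in Mfn DKO and 4.2 to 14.5 CPM in control and was called in neither model.

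Liver-specific genes differed by how far each Tfam KO liver had moved. Relative to the control mean, the mean log2 level of 30 hepatocyte products was −0.96, −3.02 and −0.29 in Tfam KO replicates 1, 2 and 3 and −0.37 to −0.17 in Mfn DKO. With all libraries 0 of 30 were called between the knockouts (median −0.74), and without replicate 3, 17 were lower and 0 higher (median −1.26). Against control 9 fell and 0 rose in Tfam KO, and 1 rose and 0 fell in Mfn DKO. Over all genes, 11.3% fell and 18.1% rose in Tfam KO, and 5.23% rose and 4.64% fell in Mfn DKO. Between the knockouts without replicate 3, 10.1% of all genes were lower and 13.9% higher. Tdo2, which starts tryptophan breakdown, was at 711, 300 and 797 CPM in Tfam KO, 804 to 1715 CPM in Mfn DKO and 1430 to 2311 CPM in control (−1.13 ± 0.35, adjusted p = 0.118). Hepatocyte transcription factors gave 0 of 24 called with all libraries and 5 lower without replicate 3, and Nr5a2, a nuclear receptor of that list, was at 41.5, 28.3 and 56.1 against 58.5 to 70.9 CPM (−0.63 ± 0.19, adjusted p = 0.118).

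Genes of nitrogen handling followed the same order of libraries. Of 44 genes of amino acid catabolism, 23 fell and 1 rose in Tfam KO against control, and 1 fell and 2 rose in Mfn DKO. Between the knockouts 0 were called (median −0.51), and 24 were lower without Tfam KO replicate 3 (median −0.98), beside 10.1% of all genes. Against control, 11.3% of all genes fell and 18.1% rose in Tfam KO, and 4.64% fell and 5.23% rose in Mfn DKO. Oat, ornithine aminotransferase, named after its values were seen, was at 135, 124 and 436 CPM in Tfam KO, 676 to 871 CPM in Mfn DKO and 637 to 807 CPM in control (−1.68 ± 0.36, adjusted p = 0.0784, and 2.06e-05 without replicate 3). Its Tfam KO libraries were below all others, with replicate 3 nearest to them. Nags, which makes the activator of the urea cycle, was at 33.3, 15.3 and 49.1 against 58 to 69.5 CPM (−0.92 ± 0.27, adjusted p = 0.107). Ass1, of the urea cycle itself, was at 1871, 1191 and 1989 CPM in Tfam KO against 2406 to 4225 CPM in Mfn DKO and 1861 to 3343 CPM in control (−1.04 ± 0.28, adjusted p = 0.101). In the 9 urea cycle genes 0 were called with all libraries, and 6 were lower without replicate 3.

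Sterol synthesis genes lay below control in 2 of the 3 Tfam KO livers. Of 26 sterol synthesis genes, 0 were called between the knockouts (median −0.84), and 23 were lower without Tfam KO replicate 3 (median −1.64), beside 10.1% of all genes. The mean log2 level of the list relative to control was −1.03, −2.24 and 0.10 in Tfam KO and −0.04 to 0.43 in Mfn DKO, beside −0.48 to −0.03 in male and 0.25 to 0.35 in female controls. Nsdhl, an enzyme of the pathway, was at 15.4, 9.0 and 43.6 against 57.9 to 87.7 CPM (−1.61 ± 0.43, adjusted p = 0.101). Fads2, a fatty acid desaturase, was at 397.7, 126 and 805 against 1374 to 1742 CPM (−1.75 ± 0.45, adjusted p = 0.101). In both genes the knockouts did not overlap.

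RNA of fatty acid oxidation genes was lower than in control in both models. Of 22 genes of mitochondrial fatty acid oxidation and ketogenesis, 14 fell in Tfam KO and 4 in Mfn DKO, none rose, and 0 were called between the knockouts (median −0.06). Without Tfam KO replicate 3, 5 were lower and 0 higher (10.1% and 13.9% of all genes). Against control, 11.3% of all genes fell in Tfam KO and 4.64% in Mfn DKO. Cpt1a, the gate of fatty acid entry into mitochondria, was at 333, 290 and 345 CPM in Tfam KO and 388 to 538 CPM in Mfn DKO, without overlap (−0.55 ± 0.17, adjusted p = 0.118). Acot2, a mitochondrial acyl-CoA thioesterase, was at 102, 467 and 25.1 against 18.9 to 37.4 CPM (2.95 ± 0.67, adjusted p = 0.0858). Cytochrome P450 genes gave 0 of 50 called (median −0.38), and 17 were lower without replicate 3 (median −1.27), beside 10.1% of all genes. Their level also differed by sex: relative to the control mean it was −0.87 to −0.57 in male and 0.42 to 0.93 in female controls, −1.22 and −0.89 in male and 0.26 and 0.42 in female Mfn DKO livers, and −1.87, −2.07 and 0.50 in Tfam KO. The part of sex in this list was not tested apart from the sex term, which gave 0 calls and a median of −0.48. Abcg8, which exports sterols into bile, was at 54, 57.3 and 67.9 CPM in Tfam KO and 107 to 117 CPM in Mfn DKO (−0.90 ± 0.21, adjusted p = 0.0916), again without overlap.

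**Figure D4:**
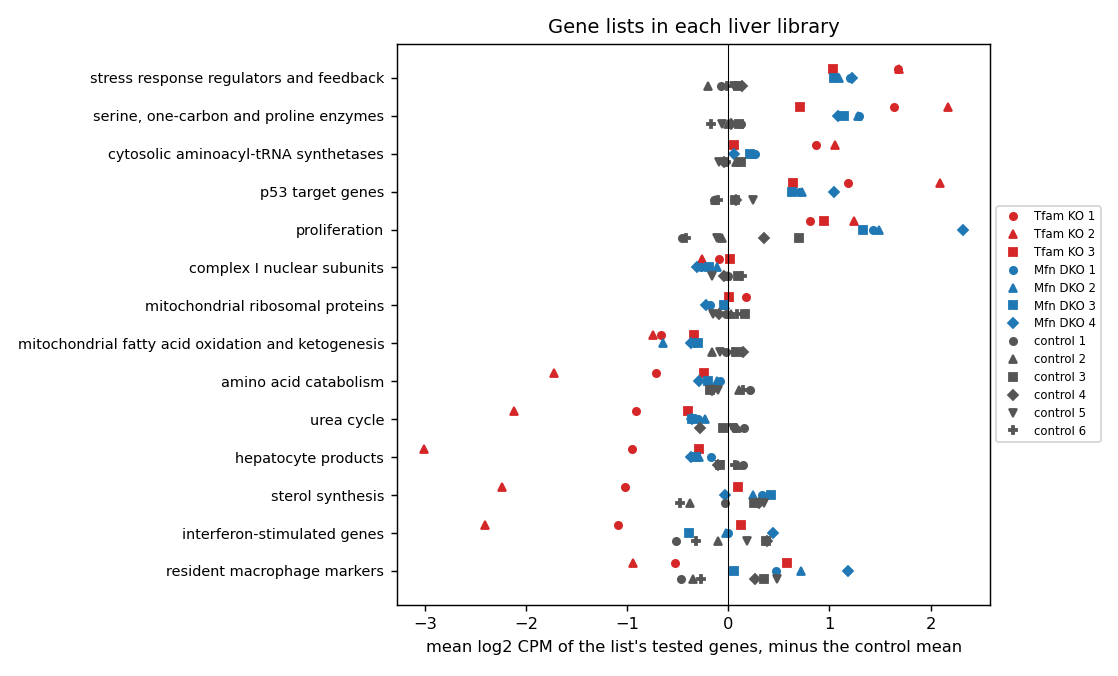
Mean log2 CPM of the tested genes of 14 lists in each liver library, minus the mean of the 6 controls, with 1 point per library and a marker shape per replicate number. Tfam KO replicate 2 (triangle) reaches −3.02 for hepatocyte products and replicate 3 (square) lies at −0.29, within the −0.37 to −0.17 of the Mfn DKO livers.

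Cell cycle genes ran against this order. In the proliferation list 18 of 24 rose in Mfn DKO against control and 12 in Tfam KO, none fell, and the medians were 1.76 and 1.10. Over all genes 5.23% rose in Mfn DKO and 18.1% in Tfam KO. Between the knockouts 0 of the 24 were called (median −0.81). Without Tfam KO replicate 3, 1 was higher and 1 lower (13.9% and 10.1% of all genes). The mean log2 level of the list relative to control was 0.80, 1.24 and 0.94 in Tfam KO and 1.33 to 2.33 in Mfn DKO, without overlap. Mki67, a marker of cycling cells named after its values were seen, was at 6.78, 7.69 and 6.42 CPM in Tfam KO, 8.13 to 22.7 CPM in Mfn DKO and 1.81 to 3.06 CPM in control (−0.88 ± 0.32, adjusted p = 0.157).

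Targets of p53 leaned the other way, with 14 of 20 risen in Tfam KO and 4 in Mfn DKO against control. Over all genes 18.1% and 5.23% rose. Between the knockouts 0 of the 20 were called (median 0.72). Without Tfam KO replicate 3, 10 were higher and 2 lower (13.9% and 10.1% of all genes). Ccng1, cyclin G1, was at 147, 285 and 69.1 CPM in Tfam KO, 51.3 to 83.7 CPM in Mfn DKO and 31.9 to 45.6 CPM in control (1.38 ± 0.34, adjusted p = 0.0976). Eda2r, a death-domain receptor, was at 11.2, 22.6 and 3.02 against 2.05 to 3.67 CPM (1.95 ± 0.52, adjusted p = 0.101).

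Markers of other liver cells gave no call between the knockouts with all libraries. Resident macrophage markers had a median of −0.79 over 12 genes, and 10 were lower without Tfam KO replicate 3 (10.1% of all genes). Their mean log2 level relative to control was −0.53, −0.95 and 0.58 in Tfam KO and 0.06 to 1.19 in Mfn DKO. Csf1r, the receptor for macrophage growth factor, was at 42.5, 31.7 and 90.9 CPM in Tfam KO and 64.7 to 147 CPM in Mfn DKO (−0.94 ± 0.37, adjusted p = 0.18). Marco, a scavenger receptor, rose against control in both, by 1.44 ± 0.38 (adjusted p = 0.0154) and 2.596 ± 0.36 (adjusted p = 0.00144), at 20.9, 41.2 and 50.6 CPM in Tfam KO, 46 to 127 CPM in Mfn DKO and 6.3 to 19.6 CPM in control. The resident list did not follow Marco in Tfam KO, where its mean level was −0.30, against 0.61 in Mfn DKO. C1qa, C1qb and C1qc of that list were named after their values were seen. Against control they differed by −0.41, −0.23 and −0.38 in Tfam KO and by 0.30, 0.42 and 0.43 in Mfn DKO, without a call. Recruited macrophage markers had a median of 0.33 over 12 genes with 0 calls. Without replicate 3, 3 were higher and 2 lower (13.9% and 10.1% of all genes). Against control 6 rose in Tfam KO and 4 in Mfn DKO (18.1% and 5.23% of all genes), and none fell. Their mean log2 level relative to control was 1.70, 1.94 and 1.22 in Tfam KO and 0.78 to 1.54 in Mfn DKO, above every control (−0.55 to 0.53). Gpnmb, of this list, a lysosomal glycoprotein of lipid-laden macrophages, was at 54.1, 359 and 1.66 CPM in Tfam KO, 2.28 to 11.6 CPM in Mfn DKO and 0 to 0.454 CPM in control (4.61 ± 1.17, adjusted p = 0.101). Neutrophil markers had a median of 1.35 over 9 genes with 0 calls, and T and NK cell markers −0.54 over 13 with 0 calls, and without replicate 3 these lists gave 0 calls and 1 lower.

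Interferon-stimulated genes had the same order of Tfam KO libraries as the resident macrophage markers and the reverse order of the recruited ones. Of 34, 0 were called (median −0.76), and 24 were lower without Tfam KO replicate 3 (median −1.81), beside 10.1% of all genes. Their mean log2 level relative to control was −1.10, −2.41 and 0.13 in Tfam KO and −0.39 to 0.44 in Mfn DKO. Male controls lay at −0.52 to −0.10 and female controls at 0.18 to 0.39. The part of the macrophage markers and of sex in this difference was not tested. Rsad2, an antiviral enzyme, was at 6.01, 3.26 and 11.5 CPM in Tfam KO, 9.78 to 24.3 CPM in Mfn DKO and 8.94 to 12.2 CPM in control (−1.23 ± 0.37, adjusted p = 0.112).

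Genes of immature liver gave 0 of 23 called between the knockouts with all libraries and 7 higher without Tfam KO replicate 3 (13.9% of all genes). Against control 12 rose in Tfam KO and 2 in Mfn DKO (18.1% and 5.23% of all genes). Their mean log2 level relative to control was 0.38, 3.24 and 0.74 in Tfam KO and 0.88 to 1.61 in Mfn DKO. Controls lay at −0.38 to 0.86. Tfam KO replicates 1 and 3 were thus below every Mfn DKO liver, and only replicate 2 was above them. Afp, the fetal form of the albumin family, was at 5.31, 10780 and 4.45 CPM in Tfam KO and 3.22 to 8.35 CPM in Mfn DKO, with controls at 1.07 to 2.81 CPM (9.45 ± 2.07, adjusted p = 0.0788). Without Tfam KO replicate 2 its difference was −0.069. The female-biased list of 20 genes had a median of −0.21 with all libraries and −3.30 without Tfam KO replicate 3. The male-biased list of 17 had −0.46 and −0.08. Neither had a call with all libraries, and without replicate 3 the female-biased list had 2 lower and the male-biased list 0.

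**Figure D5:**
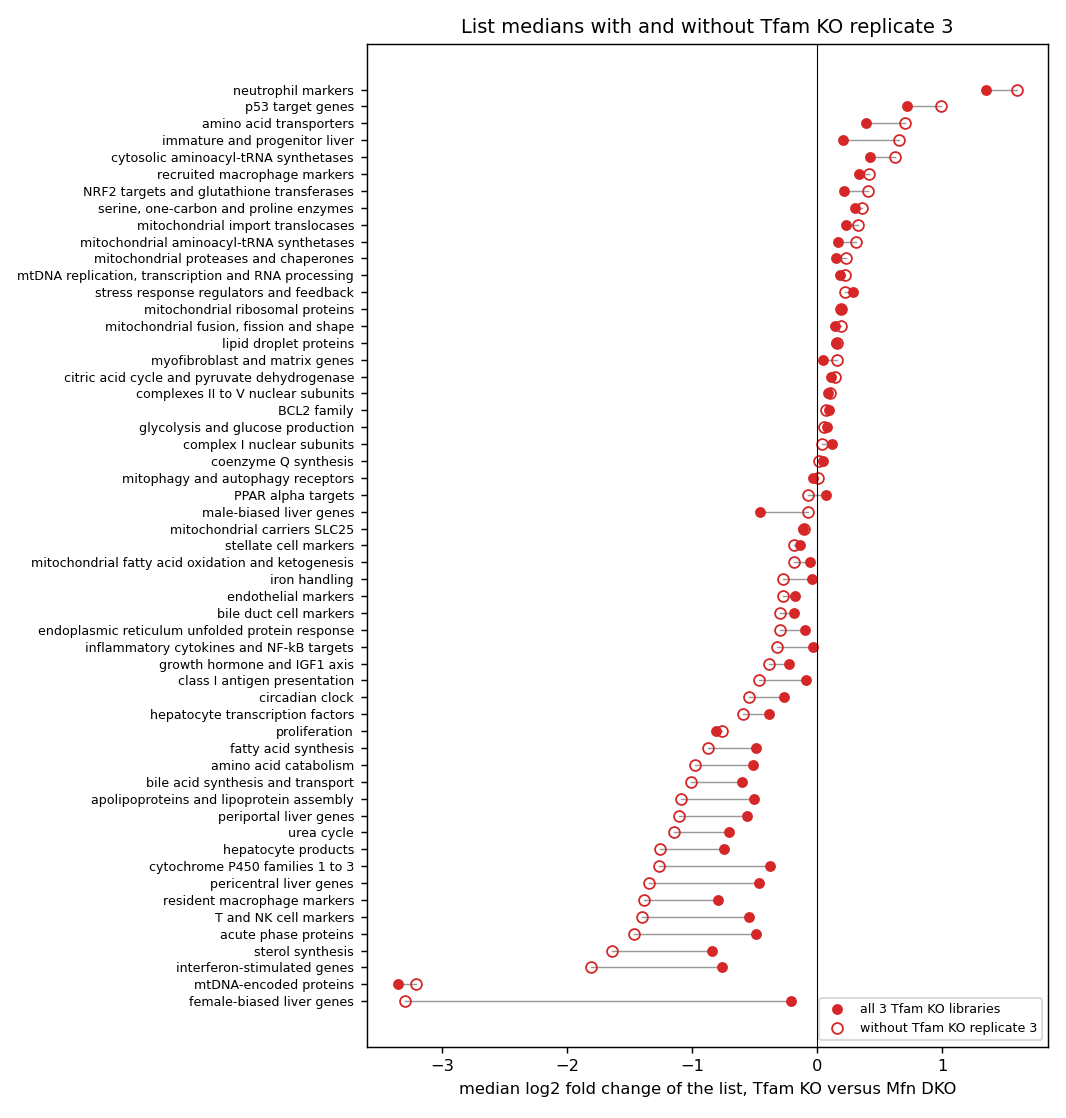
Median log2 fold change between Tfam KO and Mfn DKO of each gene list with at least 9 tested genes, with all 3 Tfam KO libraries (filled) and without replicate 3 (open), ordered by the latter. The list of mtDNA-encoded proteins lies at −3.35 and −3.21, whereas sterol synthesis moves from −0.84 to −1.64 and interferon-stimulated genes from −0.76 to −1.81.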

How the data were processed

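Gene counts, TPM and CPM were deposited by the authors for each library, and the counts were used unchanged. Per the labels' protocols, DNase-treated total RNA was sequenced in paired ends of 151 bases. The submitters' processing notes name GRCm38, STAR 2.6.1b, RSEM 1.3.1, featureCounts, DESeq2, FastQC and MultiQC without roles, and strand handling is not given in the sources used here. The deposited TPM and CPM values entered no test. All 13 liver libraries entered 1 fit with edgeR 4.0.16 (R 4.3.3): TMM scaling, filterByExpr by group, 1 mean per group, a quasi-likelihood F-test and Benjamini-Hochberg adjustment over 17024 genes, called at 0.05. CPM in the text use TMM-scaled totals, and an SE is the log2 fold change divided by the root of F.

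The members and the gene lists were chosen with earlier results of these data known. Named genes are the targeted genes, the mtDNA protein list, called genes (at most 12 in each direction with at least 5 CPM and no overlap of the knockouts, and 4 per list), and the 2 members with the smallest adjusted p of a list without calls. Others are said to be chosen later. Lists are described by counts and medians only. On simulated counts of 16666 genes for the comparison of the knockouts, 26%, 66%, 83.7% and 92% of 2-, 4-, 8- and 16-fold changes were recovered, and 3.62% of 138 calls were false. The simulation gave each gene 1 spread for all groups. It does not carry the wider spread of the Tfam KO livers, so these rates may not hold for the real comparison. No 2 replicates agreed within counting noise. The labels call the samples biological replicates and name no animals, so p-values measure the spread between these samples. Alternatives were DESeq2 1.42.0 (Wald test and size factors), 2 filters, sex by RNA, subsets, a replicate block and leaving out each library. Wilson intervals and other counting errors were small beside the spread between livers and are not printed. Islet samples of the series were not used here.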

Additional observations from a re-analysis of the deposited data

Results flagged for a closer look

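In groups of 4 to 6 libraries, 15 of 206 groups of printed genes (7.28%) had 1 library far from the rest by Dixon's criterion, and chance gives about 5%. In Mfn DKO, replicate 3 was high for mt-Tc at 3.15 CPM and for mt-Tp at 34.9 CPM. Replicate 4 was high for Atf3 at 27.4 CPM and low for Pycr1 at 1.03 CPM. Replicate 1 was low for Eda2r at 2.05 CPM and for 5830444B04Rik at 0.0 CPM, and was the only 1 with a count of Zfp982, at 0.0212 CPM. In control, replicate 3 was high for mt-Rnr1 at 2047 CPM and low for Plod1 at 54.2 CPM and Cpt1a at 380.6 CPM. Replicate 6 was high for Fv1 at 2.46 CPM, Eno1b at 0.795 CPM and Gm37131 at 0.0497 CPM. Zfp990 had its only control counts in replicate 4, at 0.0206 CPM, and Nags was high in replicate 1 at 71.4 CPM. The 3 Tfam KO libraries are too few for this criterion.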

How the results depend on the processing

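Between the knockouts, 50 genes were called, and 1087 by DESeq2's Wald test, 27 with at least 10 counts in every library, 7 with only the 7 knockout libraries, 2467 in libraries with Ddx3y and 2 in libraries with Xist. DESeq2 size factors gave 51, a sex term 65 and no filter 70, of which 36 were higher and 34 lower. Leaving out 1 library gave 24 to 4204. Tfam KO against control gave 4992 calls, 2504 (without Tfam KO replicate 2) to 7330 with 1 library left out. Mfn DKO against control gave 1681, 2870 by the Wald test and 686 (without Mfn DKO replicate 1) to 3379 (without Tfam KO replicate 2) with 1 left out. The mtDNA protein median of −3.35 was −4.34 in libraries with Ddx3y. The ratio of mtDNA shares was 6.68 to 17.3 with 1 library left out, where p cannot go below 0.0667 or 0.1 in the exact permutation test. A replicate block left 6 calls between the knockouts, 395 in Tfam KO and 169 in Mfn DKO, but equal numbers do not pair the samples: residuals of 10 same-number pairs correlated at −0.343 to 0.35. Of the single-gene differences, 44 lost their call with the replicate block, 43 with only the 7 knockout libraries and 48 in libraries with Xist, while 44 gained one without Tfam KO replicate 3 and 39 by the Wald test. Asns reversed to −0.25 in libraries with Ddx3y, −0.66 with the replicate block and −0.76 (without Tfam KO replicate 2) to 0.94 with 1 library left out. Afp reversed to −0.36 in libraries with Ddx3y and spanned −0.069 (without Tfam KO replicate 2) to 10.04 with 1 left out. Chac1, uncalled in each of these, reversed to −0.82 in libraries with Ddx3y. The causes were not tested. Most differences of 2-fold were missed in simulation. Its simulated Tfam KO livers varied no more than the other groups, unlike the real ones, so it does not give the recovery for these livers.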

Other observations

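A fit with an interaction of genotype and sex by RNA, added after the data were seen, gave 0 of 17024 genes called by edgeR's quasi-likelihood test and 690 at an unadjusted p under 0.05. NRF2 targets and glutathione transferases, which detoxify electrophiles, gave 0 of 31 called between the knockouts (8 higher and 3 lower without Tfam KO replicate 3), with 14 risen and 4 fallen in Tfam KO and 6 risen and 2 fallen in Mfn DKO against the shared controls. Cbr3, a carbonyl reductase of that list, was at 5.83, 67.2 and 1.83 CPM in Tfam KO and 1.93 to 3.39 CPM in Mfn DKO (3.34 ± 0.84). Myofibroblast and matrix genes gave 0 of 19 called between the knockouts (4 higher and 0 lower without Tfam KO replicate 3), with 9 risen in Tfam KO and 5 in Mfn DKO. For both lists, the shares over all genes were 13.9% higher and 10.1% lower without that replicate. Against control, 18.1% of all genes rose and 11.3% fell in Tfam KO, and 5.23% rose and 4.64% fell in Mfn DKO. Cd63, a tetraspanin of lysosomes and exosomes, was at 278, 450 and 30.4 CPM in Tfam KO, 47.1 to 96.2 CPM in Mfn DKO and 6.26 to 10.3 CPM in control, with differences from control of 4.95 ± 0.53 and 3.14 ± 0.49.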
